A study of Mus musculus with 18 samples.

Results

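The 40 ribosome biogenesis factors described here are nuclear genes whose products build ribosomes in the nucleolus. They were taken by gene symbol from all 18 libraries of a study of the developing mouse heart. The symbols were matched to the Ensembl identifiers of the count tables, and all 40 were found among 49315 identifiers. By role, 4 act with RNA polymerase I, and 3 and 4 belong to the box C/D and box H/ACA snoRNPs. Of the others, 6 are nucleolar proteins, called nucleolar organisation genes here, 11 act on the small subunit and 12 on the large subunit. Whole hearts were dissected from wild-type C57BL/6 embryos, male and female pooled. The youngest hearts were of embryonic day 9.5 (E9.5, 3 libraries), followed by E10.5 and E12.5 with 4 libraries each, E14.5 with 3 and E16.5 with 4. No embryo was treated, so each comparison sets a later stage against an earlier one. Whether replicates are different litters is not in the labels, so each p-value rests on how far these particular libraries differ, which may be technical in part.

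A ribosome is built from ribosomal RNA and ribosomal proteins by a large set of factors that are not part of the finished particle. RNA polymerase I transcribes a long precursor RNA, guide RNAs in snoRNPs direct its methylation (box C/D) and pseudouridylation (box H/ACA), and assembly factors cut, fold and export the precursors of the small and large subunits. Cells that grow and divide make many ribosomes, and the genes of these factors are often expressed in step with growth.

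In the promoters of these genes the hexamer CACGTG is of interest as the preferred E-box of MYC and related proteins. RefSeq promoter windows of GRCm38.p6, from 250 bases before to 50 after a start site, were matched for 35 of the 40 genes. The genes not matched were Bop1, Rrp12, Fbl, Npm1 and Rrs1. CACGTG, which reads the same on both strands, was in a window of 8 of 35 factors (22.9%), against 11.0% of the 12868 tested genes with a window and 8.09% of all 27025 genes with one. The 8 were Nop2, Utp4, Utp20, Pes1, Mybbp1a, Utp18, Rrn3 and Wdr43. The ETS-type letters CCGGAAG, or CTTCCGG on the other strand, were in windows of 12 factors (34.3%), against 17.2% of tested genes and 9.93% of all genes. The 250 bases before the start are shown for 3 factors with CACGTG there, in capitals, and for Nop10, the only factor that did not fall by E16.5, whose window held neither motif. The windows, 5′ to 3′ on the gene's strand, are chr16:13780449-13780698 (plus strand) for Rrn3, chr6:125131633-125131882 (plus) for Nop2, chr11:93885767-93886016 (minus) for Utp18 and chr2:112261676-112261925 (plus) for Nop10.
Rrn3: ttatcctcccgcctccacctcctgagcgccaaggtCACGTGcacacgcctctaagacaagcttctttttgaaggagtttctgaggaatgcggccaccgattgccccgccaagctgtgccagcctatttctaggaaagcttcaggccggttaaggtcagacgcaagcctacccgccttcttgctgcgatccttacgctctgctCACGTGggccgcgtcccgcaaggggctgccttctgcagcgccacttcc
Nop2: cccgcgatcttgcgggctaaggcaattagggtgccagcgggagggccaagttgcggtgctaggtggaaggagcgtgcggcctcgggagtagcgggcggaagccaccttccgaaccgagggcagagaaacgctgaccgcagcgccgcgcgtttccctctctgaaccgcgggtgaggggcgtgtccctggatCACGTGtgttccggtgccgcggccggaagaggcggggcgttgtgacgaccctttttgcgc
Utp18: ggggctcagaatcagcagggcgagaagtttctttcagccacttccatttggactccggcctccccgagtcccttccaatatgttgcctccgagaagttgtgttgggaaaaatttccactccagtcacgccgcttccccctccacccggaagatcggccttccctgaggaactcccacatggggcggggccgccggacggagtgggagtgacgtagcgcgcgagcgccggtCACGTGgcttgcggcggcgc
Nop10: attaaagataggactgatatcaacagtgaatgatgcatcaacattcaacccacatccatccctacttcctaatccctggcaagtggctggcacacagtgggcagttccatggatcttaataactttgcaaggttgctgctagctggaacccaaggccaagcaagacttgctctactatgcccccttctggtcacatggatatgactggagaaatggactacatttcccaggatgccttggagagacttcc
Counted from the start site, CACGTG began at -215 and -48 in Rrn3, at -60 in Nop2 and at -20 in Utp18. A match describes letters and is not a measured binding site. The 8 factors with CACGTG had a median log2 fold change of -1.10 at E16.5 against E9.5, and the 27 without it had -1.14. For the ETS-type letters the medians were -0.99 with them (12 factors) and -1.24 without (23 factors). Factors with neither motif, such as Dkc1, fell as well, and no link of motif and change was tested.

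Library totals were 30744015 to 45646538 reads counted on genes, and levels are given as CPM, counts scaled to a common library total with TMM factors. All 40 factors passed the filter on low counts that left 18885 genes to test. Their counts per library ran from 70, for Wdr74, to 63107, and from 487 without Wdr74, so counting error weighs most on Wdr74. Tnnt2, Actc1 and the 10 other cardiomyocyte markers had summed levels of 28322 to 47039 CPM, so markers of the labelled tissue were high in every library. A set of 5 libraries (E9.5 replicates 2 and 3, E10.5 replicates 1 and 2, and E12.5 replicate 4) stood apart with 0.582 to 2.75 CPM summed over 8 transcripts (Chil3, Atp6v0d2, Cd74, Gpnmb, H2-Aa, Itgax, Mmp12 and Mmp13, called the Chil3 set here), against 341 to 689 CPM in the other 13. The 10 general macrophage markers, such as Csf1r and C1qa, summed to 87.4 to 122 CPM in all 4 E12.5 libraries, on both sides of the split. They summed to 13.7, 14.1 and 52.4 CPM in the 3 E9.5 libraries and to 17.9 to 63.9 CPM in E10.5 libraries. At E9.5 and E10.5 they may thus differ by the split, which was not tested. With that split as a term beside stage, 4 of 40 factors were higher in the 13 libraries (Nop58, Nhp2, Nop16 and Wdr74), 6 were lower (Polr1a, Polr1b, Utp20, Heatr1, Bysl and Rrp1b) and 30 were not called, with 11.6% of all genes higher and 10.1% lower. Because E9.5 has 1 library on the high side and E14.5 and E16.5 have none on the low side, results are also given within the 13 libraries where they changed.

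Nearly all of the factors fell over the week. At E16.5 against E9.5, 39 of 40 were lower and none was higher (edgeR, adjusted p under 0.05 over all genes tested), where 32.8% of all genes were lower and 32.1% higher. The median log2 fold change was -1.11, against -0.01 over all genes, and the same 39 factors had no overlap between the libraries of E16.5 and E9.5, where 30.5% of all genes were lower without overlap. The exception was Nop10, at 0.31 ± 0.20 (SE, edgeR adjusted p = 0.186). The summed level of the 40 factors was 6766 to 7105 CPM in E9.5 libraries, 5350 to 5576 CPM in E10.5, 3639 to 3737 CPM in E12.5, 3016 to 3245 CPM in E14.5 and 2778 to 2820 CPM in E16.5 libraries. No library of a later stage reached the range of the stage before it. In whole hearts, fewer cells of a type and less RNA per cell cannot be told apart.

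The course was steeper before E12.5 than after E14.5. Set against each gene's own mean at E9.5, the median factor stood at 81.6% in E10.5 hearts, 56.4% in E12.5, 46.9% in E14.5 and 46.2% in E16.5 hearts. The number of factors under 50% was 0, 11, 23 and 25 at these stages. The median log2 change per day was -0.29 from E9.5, -0.26 from E10.5, -0.13 from E12.5 and -0.05 from E14.5, over intervals of 1, 2, 2 and 2 days. The mean level was lower at each successive stage for 29 factors, and lower through E14.5 for 39. Across genes, the change at E16.5 against E9.5 had a Spearman correlation of -0.30 with mRNA length and -0.07 with mean level over the 40 factors, which share all their libraries.

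**Figure D1:**
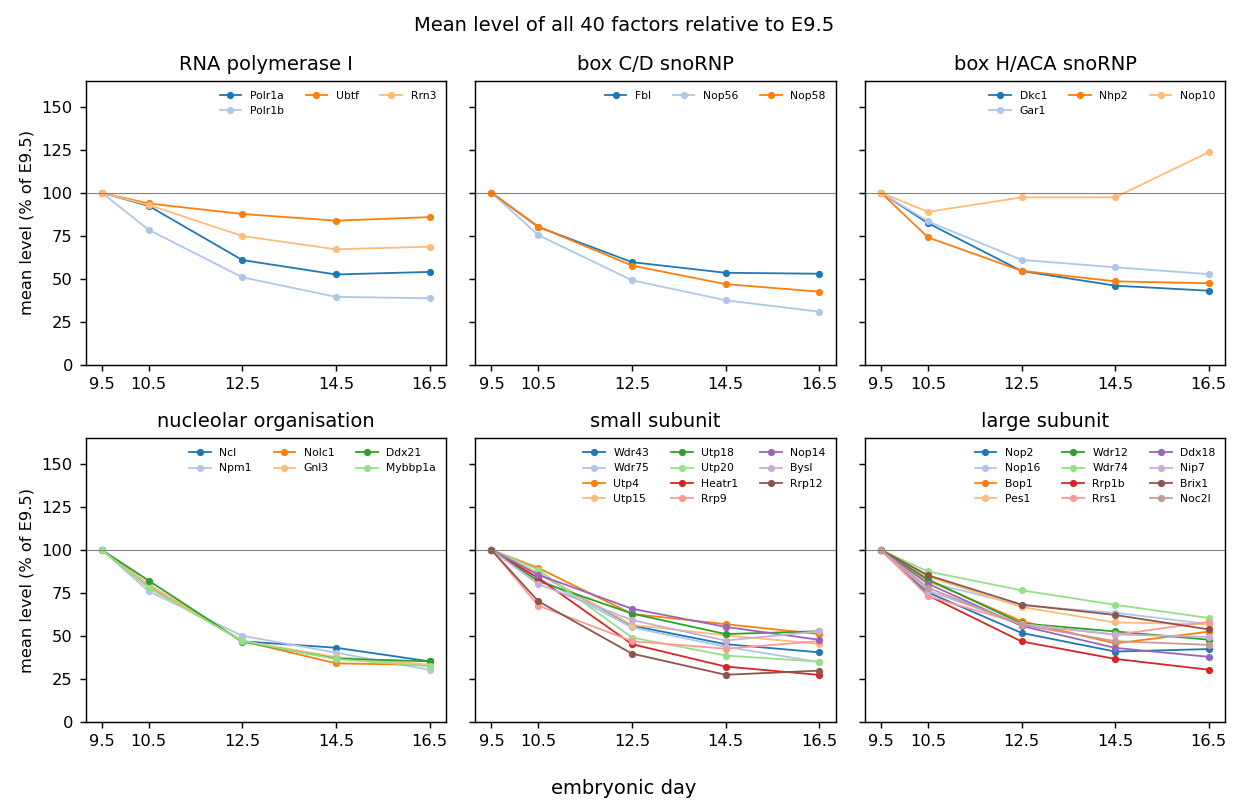
Mean level at each embryonic day as a percentage of the same gene's mean at E9.5, with 1 line per factor and 1 panel per role (n = 3, 4, 4, 3 and 4 libraries). Lines descend most before E12.5, the nucleolar organisation lines lie close together, and Nop10 ends at 124%, above its E9.5 level.

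The RNA polymerase I genes fell unequally, with Polr1b strongest and Ubtf weakest. Polr1b encodes the second largest subunit of the enzyme. It was at 47.9, 59.6 and 58.2 CPM in E9.5 libraries, 40.1 to 45.3 CPM in E10.5, 26.4 to 31.2 CPM in E12.5, 21.5 to 22.2 CPM in E14.5 and 19.3 to 23.4 CPM in E16.5 libraries. Libraries of E9.5 and E16.5 did not overlap, and the fall had a log2 fold change of -1.37 ± 0.09 (SE, edgeR adjusted p = 4.73e-11). Ubtf, the DNA-binding factor that keeps ribosomal DNA open for transcription, was at 209.9, 197 and 194 CPM at E9.5 and at 170.1, 172, 171 and 175 CPM at E16.5. All E16.5 libraries lay under all E9.5 libraries, but the step was small, at -0.22 ± 0.06 (edgeR adjusted p = 0.00187), and it missed the threshold without the filter on low counts (-0.18, edgeR adjusted p = 0.0604). Ubtf had the highest mean level per kilobase of the 4, on both mRNA and coding length. Rrn3, which recruits the polymerase to the promoter, averaged 69.4 ± 3.19 CPM at E16.5 and 101 ± 2.91 CPM at E9.5 (SD, n = 4 and 3; log2 fold change -0.54, edgeR adjusted p = 1.24e-07). Polr1a, the largest subunit, was at 47.4, 58.0, 48.1 and 48.7 CPM at E16.5, against 69.8, 105 and 106 CPM at E9.5. The low E9.5 value was replicate 1, the only E9.5 library high in the Chil3 set. The fall was -0.89 ± 0.12 (edgeR adjusted p = 2.53e-06), and -0.46 within the 13 libraries high in that set (edgeR adjusted p = 0.00358).

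Of the box C/D proteins, which carry the guide RNAs for ribose methylation, Nop56 fell most and Fbl least. Nop56, a scaffold of the particle, was at 206, 198 and 193 CPM in E9.5 libraries, 140.0 to 160.2 CPM in E10.5, 89.8 to 117 CPM in E12.5, 70.7 to 80.9 CPM in E14.5 and 51.7 to 66.6 CPM in E16.5 libraries. Its libraries did not overlap between any neighbouring stages, and the whole fall was -1.70 ± 0.10 (SE, edgeR adjusted p = 1.10e-11). Fbl, fibrillarin, is the methyltransferase itself and had the highest level per kilobase of the 3. It was at 113, 111, 107 and 124 CPM at E16.5, against 213, 216 and 214 CPM at E9.5, with no overlap (log2 fold change -0.92 ± 0.08, edgeR adjusted p = 6.65e-09). Nop58, the partner scaffold, averaged 82.4 ± 6.10 CPM at E16.5 and 194 ± 21.0 CPM at E9.5 (SD, n = 4 and 3; -1.24, edgeR adjusted p = 1.40e-10). Nop56 and Nop58 also carry 5 and 4 annotated snoRNAs inside their gene spans. Other annotated genes, mainly snoRNAs on the same strand, overlap 8.12% of the exon length of Nop56, so its count is less certain.

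Among the box H/ACA proteins, Nop10 did not follow its partners. Dkc1, dyskerin, is the pseudouridine synthase and is also a component of telomerase. It was at 48.9, 49.6, 49.1 and 47.1 CPM at E16.5, against 118, 113 and 108 CPM at E9.5, with a log2 fold change of -1.22 ± 0.06 (SE, edgeR adjusted p = 5.77e-13). Nop10, the smallest subunit, was at 88.1, 70.0 and 65.3 CPM in E9.5 libraries, 57.6 to 75.2 CPM in E10.5, 63.0 to 88.7 CPM in E12.5, 45.5, 80.0 and 92.1 CPM in E14.5 and 79.5 to 104 CPM in E16.5 libraries. The E16.5 and E9.5 libraries overlapped, replicate 1 of E14.5 was the lowest of all 18, and no comparison called a change of Nop10. Within the 13 libraries high in the Chil3 set its log2 fold change at E16.5 against E9.5 was 0.07 (edgeR adjusted p = 0.886). The other subunits, Gar1 and Nhp2, were at 29.2 to 32.5 and 54.9 to 71.4 CPM at E16.5, against 57.4 to 62.1 and 119.6 to 149.7 CPM at E9.5, without overlap (-0.92 and -1.08, edgeR adjusted p = 8.62e-08 and 5.71e-06).

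The 6 nucleolar organisation genes fell most uniformly, with log2 fold changes from -1.73 to -1.51 at E16.5 against E9.5 and a median of -1.59. Npm1, nucleophosmin, is a histone chaperone and a major constituent of the outer nucleolus. It was at 1906, 1504 and 1541 CPM in E9.5 libraries, 1187 to 1328 CPM in E10.5, 773 to 882 CPM in E12.5, 691, 707 and 595 CPM in E14.5 and 523, 460.4, 515 and 498 CPM in E16.5 libraries. Each stage lay under the stage before it without overlap, and Npm1 fell by 1.73 on the log2 scale (SE 0.09, edgeR adjusted p = 1.83e-12). It was the most abundant factor at each stage in CPM, and the highest of the 6 per kilobase. Ncl, nucleolin, an RNA-binding protein of early precursor processing, was at 429, 437, 454 and 409 CPM at E16.5, against 1239, 1225 and 1222 CPM at E9.5. It fell by 1.51 (SE 0.07, edgeR adjusted p = 6.59e-13). The 2 genes made up 33.2% of the summed mean level of the 40 factors at E16.5 and 41.8% at E9.5.

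The other 4 fell as well. Ddx21, a nucleolar RNA helicase and the least changed of the 6, was at 78.0, 91.6, 88.5 and 88.6 CPM at E16.5, against 232, 252 and 255 CPM at E9.5 (-1.51 ± 0.07, edgeR adjusted p = 7.43e-13). Nolc1, a chaperone that binds snoRNPs, was at 47.5 to 51.6 CPM at E16.5, against 142, 151 and 159 CPM at E9.5 (-1.60 ± 0.07, edgeR adjusted p = 2.44e-13). Gnl3, nucleostemin, averaged 38.3 ± 2.48 CPM at E16.5 and 115 ± 9.65 CPM at E9.5, and Mybbp1a, a nucleolar MYB-binding protein, 109.5 ± 6.91 CPM at E16.5 and 339 ± 42.0 CPM at E9.5 (SD, n = 4 and 3).

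**Figure D2:**
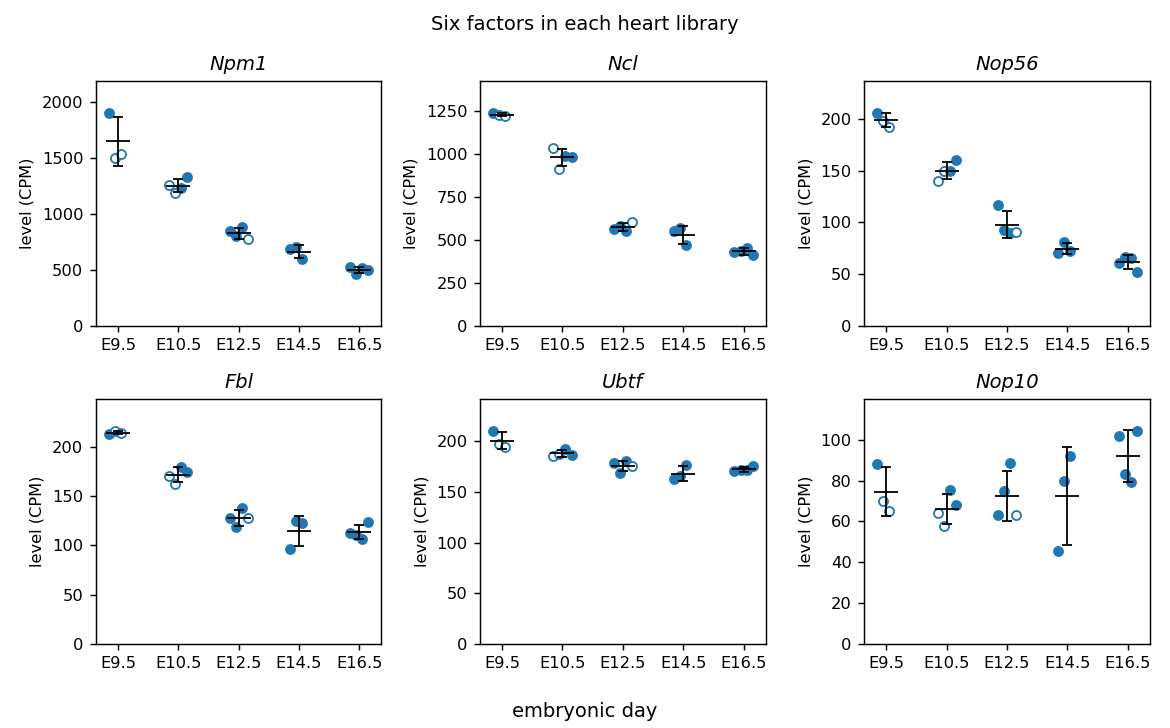
Level in CPM of 6 factors in each of the 18 libraries by embryonic day, with each axis starting at 0. Points are libraries, open points are the 5 libraries low in the Chil3 set, and bars are the stage mean ± SD. Npm1 and Nop56 step down between all stages, Ncl and Fbl end far under their E9.5 values, Ubtf stays between 162 and 209.9 CPM, and Nop10 overlaps between E9.5 and E16.5.

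All 11 small subunit factors were lower at E16.5 than at E9.5, by -1.87 to -0.92 on the log2 scale. Heatr1, a large HEAT-repeat protein that binds the nascent precursor, was at 52.8, 70.7 and 73.1 CPM in E9.5 libraries, 50.5 to 58.3 CPM in E10.5, 25.9 to 32.6 CPM in E12.5, 20.2 to 21.8 CPM in E14.5 and 15.6, 20.8, 18.9 and 16.3 CPM in E16.5 libraries. It ended at 27.3% of its E9.5 mean, the lowest share of the 40 (-1.87 ± 0.11, SE, edgeR adjusted p = 2.63e-11). E9.5 replicate 1 lay inside the E10.5 range, and E16.5 stayed under all earlier libraries apart from the E14.5 ones, which it overlapped. Wdr75, a subunit of the same early complex, was at 24.2, 24.2, 23.0 and 25.6 CPM at E16.5, against 70.1, 69.6 and 69.7 CPM at E9.5. Its libraries did not overlap between any neighbouring stages, and it had the smallest p of the 40 (-1.52 ± 0.06, edgeR adjusted p = 1.59e-13). Utp18, a WD-repeat subunit of the 90S pre-ribosome and the least changed of the 11, was at 27.8 to 30.8 CPM at E16.5, against 57.5, 54.1 and 55.6 CPM at E9.5 (-0.92 ± 0.06, edgeR adjusted p = 1.25e-10).

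The rest of this group spans early cleavage and late maturation. Utp4, of the same early complex as Heatr1, had the highest level per kilobase of mRNA in the group, though not per coding kilobase, and averaged 37.8 ± 1.78 CPM at E16.5 and 73.9 ± 4.57 CPM at E9.5 (SD, n = 4 and 3; -0.97, edgeR adjusted p = 5.51e-10). Rrp12, which acts in export of the pre-40S particle, was at no more than 20.9 CPM at E16.5, against at least 55.5 CPM at E9.5 (-1.75, edgeR adjusted p = 1.17e-11). Utp20 (-1.51), Wdr43 (-1.31), Utp15 (-1.14), Rrp9 (-1.09), Nop14 (-1.07) and Bysl (-0.92) lay between these and Utp18 in the size of their log2 fold change or beside it. Exons of Bysl and Nop14 overlap Ccnd3 and the antisense gene Gm15522 on the opposite strand over 9.37% and 5.27% of their length, and strand use in the counting is not given in the sources used here, so both counts are less certain.

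All 12 large subunit factors were lower too, by -1.72 to -0.73 on the log2 scale. Rrp1b, a nucleolar protein of pre-60S maturation, was at 66.0, 79.7 and 87.0 CPM in E9.5 libraries, 52.9 to 61.1 CPM in E10.5, 30.7 to 40.5 CPM in E12.5, 28.0 to 28.7 CPM in E14.5 and 21.9 to 24.9 CPM in E16.5 libraries. No neighbouring stages overlapped (E16.5 against E9.5, -1.72 ± 0.10, SE, edgeR adjusted p = 6.97e-12). Wdr74, which acts with a remodelling ATPase on the pre-60S particle, had the lowest level of the 40 and was at 3.14, 2.77, 2.16 and 2.48 CPM at E16.5, against 5.80, 3.76 and 3.52 CPM at E9.5. The groups did not overlap, but the highest E9.5 value was replicate 1 and the call ended without that library (-0.73 ± 0.20 with all, edgeR adjusted p = 0.00378, and -0.46 without it, edgeR adjusted p = 0.0526). Its log2 fold change was -1.13 within the 13 libraries high in the Chil3 set. There the same replicate 1 is the only E9.5 library, so this value rests on it. Pes1, Bop1 and Wdr12, which form the PeBoW complex needed for 28S ribosomal RNA maturation, also fell. Pes1, the most abundant of the 3 in CPM, was at 72.5 to 77.8 CPM at E16.5, against 130.5 to 133 CPM at E9.5. Bop1 averaged 45.4 ± 3.70 CPM at E16.5 and 86.5 ± 6.21 CPM at E9.5, and Wdr12 22.8 ± 1.74 CPM at E16.5 and 47.6 ± 2.19 CPM at E9.5 (SD, n = 4 and 3). Their log2 fold changes were -0.82, -0.93 and -1.06.

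Nop2, the methyltransferase of a cytosine in 28S ribosomal RNA, was at 42.9 to 46.6 CPM at E16.5, against 102, 106 and 108 CPM at E9.5 (-1.24 ± 0.07, edgeR adjusted p = 9.19e-12). Ddx18, an RNA helicase of pre-60S assembly, had -1.40 ± 0.07 (edgeR adjusted p = 1.12e-12). The remaining large subunit factors were Noc2l (-1.16), Nip7 (-1.02), Brix1 (-0.90), Nop16 (-0.81) and Rrs1 (-0.78), the last of which helps bring the 5S particle into the large subunit. Exons of Noc2l overlap Samd11 on the opposite strand over 20.9% of their length, so its count is the least certain of the 40 in this respect.

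**Figure D3:**
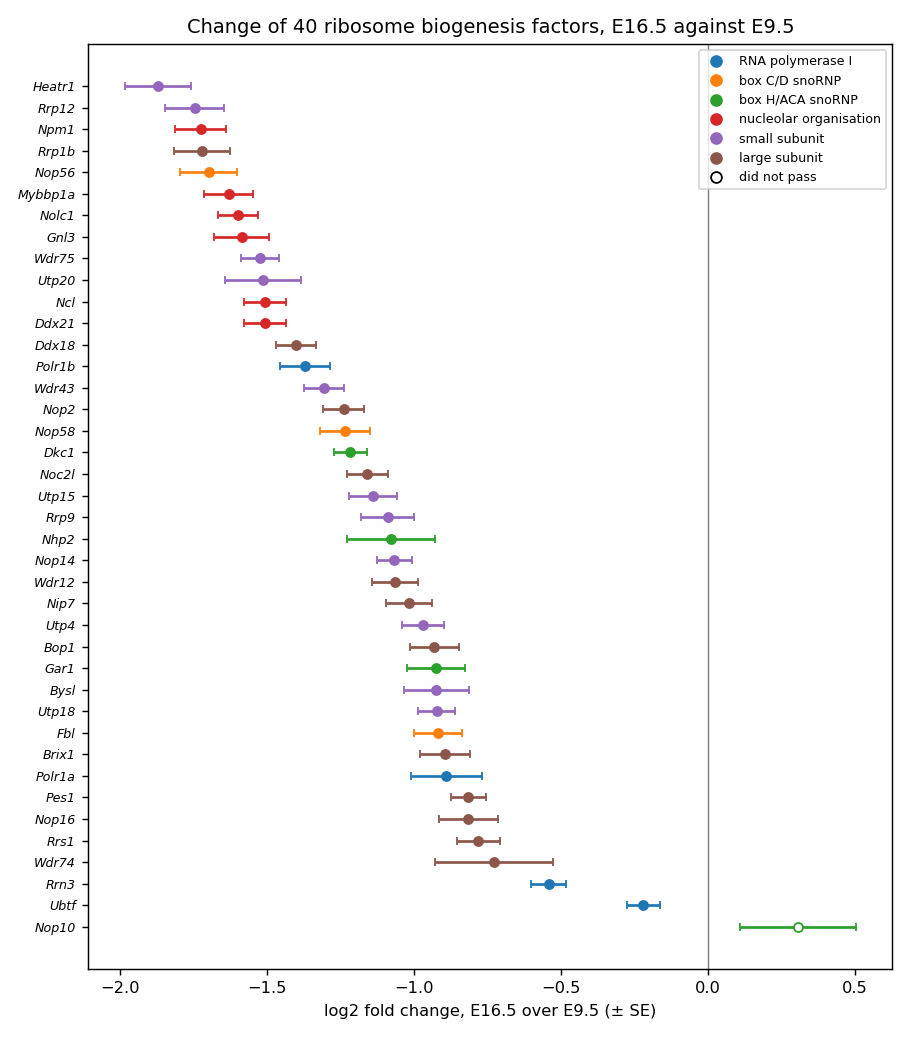
Log2 fold change of each of the 40 factors at E16.5 over E9.5 with its standard error (edgeR, n = 4 and 3), coloured by role, filled where the adjusted p was under 0.05. From -1.87 for Heatr1, 39 filled points lie left of 0, and the open point of Nop10 lies at 0.31.

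Neighbouring stages share libraries, so the 4 intervals are not independent of each other. In the first, E10.5 (n = 4) against E9.5 (n = 3), 28 of 40 factors fell and 12 were not called, with none higher (edgeR, adjusted p from 0.000149 to 0.63), where 7.62% of all genes fell and 10.6% rose. The median was -0.29, and the 2 stages did not overlap for 33 factors, where 13.4% of all genes were lower without overlap. The calls included all 3 box C/D and all 6 nucleolar organisation genes, 10 of 12 large subunit, 7 of 11 small subunit, 1 of 4 RNA polymerase I (Polr1b) and 1 of 4 box H/ACA genes (Dkc1).

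Rrp9, the protein specific to the U3 snoRNP, had the smallest p. It was at 39.9, 40.1, 45.1 and 41.8 CPM at E10.5, against 63.3, 60.0 and 61.7 CPM at E9.5, well apart (-0.56 ± 0.09, SE, edgeR adjusted p = 0.000149). Rrs1 was at 43.3 to 48.3 CPM at E10.5, against 61.6 to 64.7 CPM at E9.5 (-0.45 ± 0.07, edgeR adjusted p = 0.000227). Nop2 was at 74.7 to 83.1 CPM at E10.5, against 102 to 108 CPM at E9.5 (-0.41 ± 0.07, edgeR adjusted p = 0.000317). Neither overlapped. Within the 13 libraries high in the Chil3 set, which hold 1 library of E9.5, the median was -0.30. Most factors called over all libraries lost their call there. Of these, the values of Polr1b (-0.18), Nolc1 (-0.22), Mybbp1a (-0.13), Bysl (-0.15), Bop1 (-0.11) and Rrp1b (-0.25) shrank by over 1.5 times. Within the 5 others, an alternative chosen after seeing the data, 33 fell with a median of -0.29. In that fit 6460 of 18524 genes were called, 44.5% of them lower.

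From E10.5 to E12.5 almost the whole set fell. At E12.5 against E10.5 (n = 4 each), 37 of 40 factors were lower, none was higher and Ubtf, Nop10 and Wdr74 were not called (edgeR, adjusted p from 1.57e-08 to 0.608), where 18.1% of all genes were lower and 20.0% higher. The median was -0.53, 36 factors did not overlap, where 18.7% of all genes were lower without overlap, and this interval held the largest fall in mean for 36 factors. Of the 6 nucleolar organisation genes 6 fell, with a median of -0.75, and of the 11 small subunit genes 11, with a median of -0.61.

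The smallest p belonged to Ddx21, at 113, 119, 103 and 123 CPM at E12.5, against 200.4, 206, 206 and 197 CPM at E10.5 (-0.82 ± 0.07, SE, edgeR adjusted p = 1.57e-08). Ncl was at 554 to 605 CPM at E12.5, against 911 to 1034 CPM at E10.5 (-0.77 ± 0.07, edgeR adjusted p = 3.25e-08). Nolc1 was at 63.0 to 76.7 CPM at E12.5, against 113 to 124 CPM at E10.5 (-0.74 ± 0.06, edgeR adjusted p = 4.28e-08). All E12.5 libraries of these genes were far under all E10.5 libraries. Red cell markers moved across this interval too, with summed levels of 16638 to 51899 CPM over the 10 genes at E12.5, against 9436 to 16080 CPM at E10.5. With mitochondrial and red cell genes left out of the scaling, each of the 40 factors kept its call in this interval.

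At E14.5 (n = 3) against E12.5 (n = 4), 21 of 40 factors fell, none rose and 19 were not called (edgeR, adjusted p from 0.000137 to 0.999), where 8.56% of all genes fell and 6.29% rose. The median was -0.26. The 21 were 5 of 6 nucleolar organisation genes (not Ncl), 6 of 11 small subunit, 6 of 12 large subunit, 2 of 3 box C/D, 1 of 4 box H/ACA (Dkc1) and 1 of 4 RNA polymerase I genes (Polr1b).

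Nolc1 was at 51.2, 52.3 and 50.4 CPM at E14.5, against 76.7, 69.0, 63.0 and 74.6 CPM at E12.5 (-0.47 ± 0.07, SE, edgeR adjusted p = 0.000137). Ddx18 was at 37.2 to 38.6 CPM at E14.5, against 47.0 to 52.7 CPM at E12.5 (-0.37 ± 0.07, edgeR adjusted p = 0.000888). Rrp12 was at 14.9 to 17.7 CPM at E14.5, against 20.5 to 26.5 CPM at E12.5 (-0.54 ± 0.10, edgeR adjusted p = 0.00121). The 3 genes had no overlap. Red cell markers summed to 5021 to 15712 CPM at E14.5, against 16638 to 51899 CPM at E12.5, and with mitochondrial and red cell genes left out of the scaling 21 factors were again lower. With library totals as the only scaling, 12 factors passed, with a median of -0.18, and the share of lower genes among all calls was 37.5%, against 57.7% with TMM.

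Few factors changed in the last interval. At E16.5 (n = 4) against E14.5 (n = 3), 5 of 40 factors fell, none rose and 35 were not called (edgeR, adjusted p from 0.00134 to 0.927), where 8.74% of all genes fell and 10.1% rose. That share of 5 in 40 is near the background, and the median was -0.10, against -0.02 over all genes. The libraries did not overlap downwards for 10 factors, where 13.9% of all genes were lower without overlap. They did not overlap upwards for Rrs1 (36.6 ± 3.03 CPM at E16.5 and 31.8 ± 2.01 CPM at E14.5, SD, edgeR adjusted p = 0.0724), where 16.3% of all genes were higher without overlap.

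The 5 were Wdr75, Npm1, Ncl, Nop14 and Nop56. Wdr75 was at 24.2, 24.2, 23.0 and 25.6 CPM at E16.5, against 32.8, 30.0 and 28.6 CPM at E14.5 (-0.33 ± 0.06, SE, edgeR adjusted p = 0.00134). Npm1 was at 523, 460.4, 515 and 498 CPM at E16.5, against 691, 707 and 595 CPM at E14.5 (-0.41 ± 0.09, edgeR adjusted p = 0.00225). Ncl was at 409 to 454 CPM at E16.5, against 470.1 to 569 CPM at E14.5 (-0.29 ± 0.07, edgeR adjusted p = 0.00617). None of these 3 overlapped. The count rests on scaling and filter: it was 19 with library totals only, where the median of all genes itself moved to -0.15 and 75.6% of all calls were lower, against 46.4% with TMM, it was 3 without the filter on low counts, and it was 2 without E14.5 replicate 2.

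Counted over the 4 intervals, Nop56, Npm1, Wdr75 and Nop14 fell in each, 17 factors fell in 3, 8 in 2 and 8 in 1. Ubtf, Nop10 and Wdr74 were not called in any interval.

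Proteins of a fixed complex did not all change in proportion at the RNA level. In 3 complexes of known composition, the log2 ratio of levels was compared for 12 subunit pairs between the 7 libraries of E14.5 and E16.5 and the 7 of E9.5 and E10.5, by an exact two-sided permutation test with Benjamini-Hochberg adjustment over the 12. The smallest p this design allows is 0.000583. Ratios describe unequal change and do not say which partner changed. Pairs of the same complex share subunits, so the 12 tests are not independent of each other.

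In the box C/D particle, the log2 ratio of Fbl to Nop56 was 0.45 to 1.26 in the late libraries, against 0.05 to 0.28 in the early ones, without overlap. The difference was 0.61 (exact permutation test, adjusted p = 0.00175). The ratio of Nop56 to Nop58 averaged -0.37 ± 0.18 late and -0.01 ± 0.10 early (SD, n = 7 each, difference -0.36, exact permutation test, adjusted p = 0.00175), also without overlap. Fbl over Nop58 differed by 0.26 with overlap (exact permutation test, adjusted p = 0.0148). Both ratios of Fbl to a scaffold were thus higher in the late libraries.

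In the box H/ACA particle, Dkc1 over Nop10 was -1.15 to 0.21 late, against 0.29 to 0.73 early, a difference of -1.25 without overlap (exact permutation test, adjusted p = 0.00175). In linear terms, Dkc1 stood at 0.54 ± 0.08 times the CPM of Nop10 at E16.5 (n = 4) and at 1.54 ± 0.17 times at E9.5 (SD, n = 3). Gar1 over Nop10 differed by -0.97 and Nhp2 over Nop10 by -1.04 (exact permutation test, adjusted p = 0.00175 and 0.0028), and Nhp2 over Nop10 overlapped. Among the other 3 subunits the differences were smaller. Dkc1 over Gar1 was lower by 0.28 late (exact permutation test, adjusted p = 0.014), while Dkc1 over Nhp2 at -0.21 and Gar1 over Nhp2 at 0.07 did not pass (exact permutation test, adjusted p = 0.0713 and 0.607). They were -0.04 and 0.24 within the 13 libraries high in the Chil3 set (exact permutation test, adjusted p = 0.833 and 0.1).

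In PeBoW, Pes1 gained slightly on both partners, by 0.19 over Bop1 and 0.19 over Wdr12 (exact permutation test, adjusted p = 0.0148 and 0.0105), with overlap. In linear terms, Pes1 over Bop1 was highest at E14.5, at 1.94 ± 0.13 (SD, n = 3). It was 1.66 ± 0.11 at E16.5 (n = 4), 1.53 ± 0.10 at E9.5 and 1.57 ± 0.07 at E10.5. Bop1 over Wdr12 averaged 0.85 ± 0.23 late and 0.85 ± 0.14 early (SD, n = 7 each, exact permutation test, adjusted p = 0.962). The late mean pooled stages that lay on either side of the early ones. As a linear ratio, Bop1 over Wdr12 was 1.59 ± 0.26 at E14.5 (SD, n = 3) and 1.996 ± 0.12 at E16.5 (n = 4). It was 1.82 ± 0.21 at E9.5 (n = 3) and 1.81 ± 0.17 at E10.5 (n = 4). A difference of this pair between single stages was not tested. Within the 13 libraries high in the Chil3 set, which leave 3 early ones, Fbl over Nop58, Dkc1 over Gar1 and both Pes1 ratios kept their direction and missed the threshold. With so few early libraries even Fbl over Nop56, without overlap, reached only 0.04 (exact permutation test, adjusted p). A miss there thus says little.

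**Figure D4:**
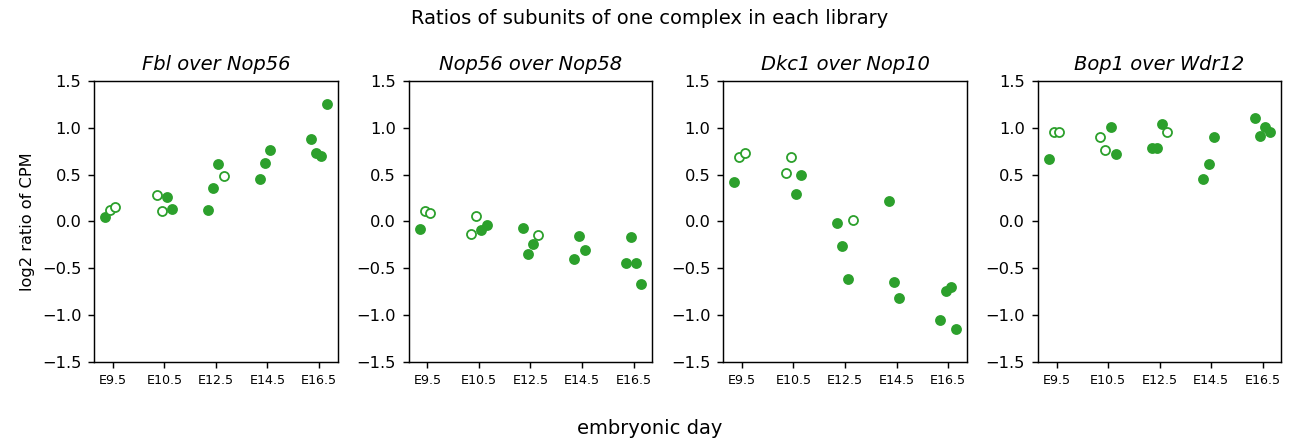
Log2 ratio of the CPM of 2 subunits of a complex in each of the 18 libraries, by embryonic day. Open points are the 5 libraries low in the Chil3 set. Fbl over Nop56 climbs to 0.45 to 1.26 at E14.5 and E16.5, Nop56 over Nop58 and Dkc1 over Nop10 descend, and Bop1 over Wdr12 overlaps between early and late libraries.

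Other genes of ribosome assembly were examined in the same fit. Of 96 further assembly factors tested, 47 fell at E10.5 against E9.5, 77 at E12.5 against E10.5 (2 rose), 32 at E14.5 against E12.5 and 5 at E16.5 against E14.5 (2 rose). The last count is under the 8.74% of all genes that fell in that interval, where the first was set against 7.62%, the second against 18.1% and the third against 8.56%. Their medians in these intervals were -0.24, -0.37, -0.18 and -0.08. Over the whole range 89 fell and 2 rose, where 32.8% of all genes fell and 32.1% rose, with a median of -0.86, and those of smallest p were Ftsj3 (-1.30), Mak16 (-1.46) and Ltv1 (-1.33). The 2 that rose were Polr1e, a subunit of RNA polymerase I, at 48.4 ± 4.72 CPM at E16.5 and 25.2 ± 1.22 CPM at E9.5 (SD, n = 4 and 3; log2 fold change 0.94 ± 0.09, SE, edgeR adjusted p = 4.10e-08), and Nop53, an adaptor of pre-60S processing, at 198 ± 20.5 CPM at E16.5 and 154 ± 8.24 CPM at E9.5 (0.37 ± 0.11, edgeR adjusted p = 0.00501).

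The ribosomal proteins themselves are the building blocks of the finished particle. Of 77 cytosolic ribosomal protein genes, 26 fell and 1 rose at E16.5 against E9.5. The share that fell is near the 32.8% of all genes. Their median was -0.21, beside -1.11 for the 40 factors, and at E12.5 against E10.5 it was 0.05, beside -0.53. Reads of these genes may be shared with their many pseudogenes, so their values are less certain. The difference between the 2 lists was not tested.

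Genes of cell division also fell over the whole range. Of 32 DNA replication genes, 4 fell at E10.5 against E9.5 (median -0.06), 26 at E12.5 against E10.5 (-0.35), 14 at E14.5 against E12.5 (-0.25) and 15 at E16.5 against E14.5 (-0.20). All 32 were lower at E16.5 than at E9.5, with a median of -0.78. Of 24 mitosis genes, 9, 17, 4 and 7 fell in the 4 intervals, and 22 over the whole range (median -0.84). Of all genes, 7.62%, 18.1%, 8.56% and 8.74% fell in the 4 intervals, and 32.8% over the whole range. Both counts of 4 lie nearest to these shares. The lists differ in size and expression, and no difference between them was tested.

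**Figure D5:**
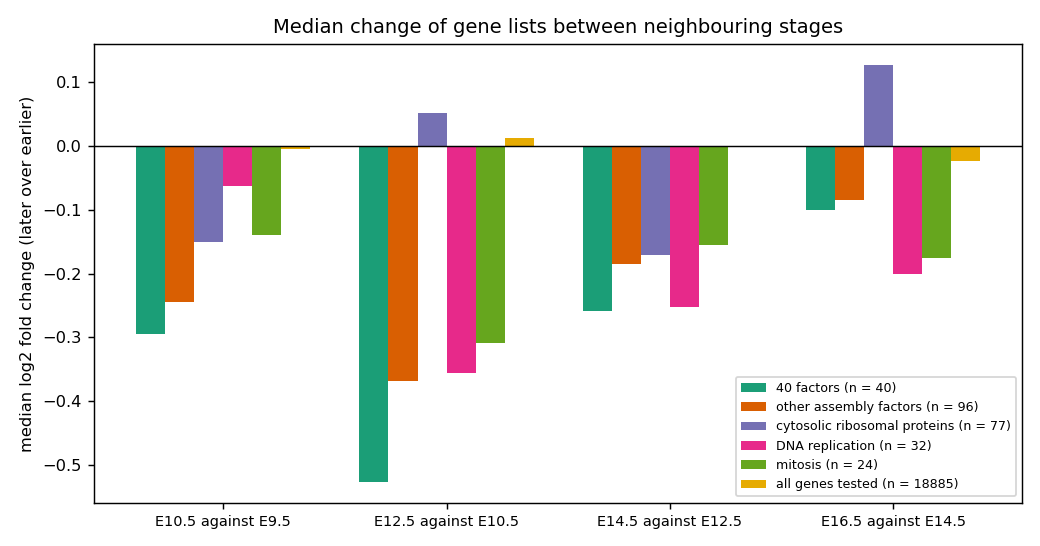
Median log2 fold change, later over earlier stage, of the 40 factors and of 4 other gene lists and all genes tested, in each of the 4 intervals. Bars of the 40 factors are at -0.29, -0.53, -0.26 and -0.10, those of ribosomal proteins change sign between intervals, and those of all genes are near 0.

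Markers of cell types changed over the same days, though in whole hearts they do not separate cell number from RNA per cell. At E16.5 against E9.5, 32.1% of all genes were higher and 32.8% lower. The 10 fibroblast markers had summed levels of 4846 to 6074 CPM at E16.5, against 483 to 580 CPM at E9.5, and 8 of them rose and 1 fell (edgeR). The 10 macrophage markers stood at 140.3 to 177 CPM at E16.5, against 13.7 to 52.4 CPM at E9.5, with 7 higher, and the 10 endothelial markers at 1146 to 1191 CPM at E16.5, against 839 to 966 CPM at E9.5, with 7 higher and 2 lower. The 8 epicardial markers stood at 315 to 434 CPM at E16.5, against 154 to 216 CPM at E9.5, with 4 higher and 1 lower. Of the 12 cardiomyocyte markers, 5 were higher and 4 lower, at 41170 to 47039 CPM at E16.5, against 35257 to 39934 CPM at E9.5. Of the 10 red cell markers 5 were higher and 4 lower, at 10772 to 23535 CPM at E16.5, against 5337 to 8096 CPM at E9.5. For such short lists, the counts of epicardial, cardiomyocyte and red cell markers are not far from the shares of all genes. The 10 endoderm and liver markers were at 13.3 to 25.3 CPM at E16.5, against 96.5 to 176 CPM at E9.5, and 4 of the 5 tested were lower. No listed marker was at 0 in all libraries, and the part of these changes in the fall of the factors was not tested.

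Genes that host snoRNAs were more common among the factors than among protein-coding genes at large. In the GENCODE M21 annotation of GRCm38, 6 of 40 factors (15.0%) contained at least 1 annotated snoRNA within their span, 19 in all, against 239 of 15396 tested protein-coding genes (1.55%). The hosts were Nop56 with 5, Nop58 with 4, Ncl, Gnl3 and Wdr43 with 3 each and Dkc1 with 1. All 6 fell at E16.5 against E9.5. Short snoRNAs are poorly captured by such libraries, and their own levels were not analysed here.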

How the data were processed

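RNA of 18 heart libraries at 5 stages was sequenced by standard Illumina methods, per the labels' protocols. The authors deposited counts of reads per Ensembl gene for each library, whole numbers that are not normalized. Per the submitters' processing notes, the tools were STAR 2.5.2b, Trimmomatic 0.36, Subread 1.5.2 and featureCounts, with builds GRCm38 and mm10. The strand setting and annotation are not given in any source used here, so overlapping genes may share reads.

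Counts were scaled by TMM and tested with edgeR 4.0.16 in R 4.3.3 (filterByExpr by stage, quasi-likelihood fit with robust dispersion over all 18 libraries, stage as the only term, Benjamini-Hochberg adjustment over 18885 genes, calls at adjusted p under 0.05). Levels are CPM. The fit and the permutation test were tested on simulated data. All 24 pairs of libraries of a stage differed by more than counting error (chi-square over its degrees of freedom from 6.06 to 79.8). No label says that a replicate number pairs libraries of different stages, so the main fit did not use it.

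The members, gene lists and tests were chosen with earlier results of these data known. Genes were named by rule: per role the member highest per length and those that changed most and least, the members of 3 complexes, those never called, and per comparison the 3 of smallest p. Other assembly factors were named by smallest p. Symbols were found for 48970 of 49315 identifiers and GENCODE M21 held 49056, and 96 of 101 listed other assembly factors were found. Alternatives were RLE factors, library totals, no filter or at least 10 CPM in 3 libraries, DESeq2 1.42.0, only the stages compared, a replicate block, the split at 100 CPM of the Chil3 set of 8 transcripts as a term or a limit, mitochondrial and red cell genes left out, and each library left out.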

Additional observations from a re-analysis of the deposited data

Results flagged for a closer look

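Among the 40 factors at the 3 stages with 4 libraries, 120 groups were checked for a library that stands far from the other 3 by Dixon's ratio, and 6 were picked out. Chance alone picks out about 1 in 20, which is 6 of 120.

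Polr1a at E16.5 had its highest value in replicate 2, at 58.0 CPM, with the others at 47.4 to 48.7 CPM. Nop56 at E12.5 was highest in replicate 1, at 117 CPM, with the others at 89.8 to 92.8 CPM. Rrp9 at E16.5 was highest in replicate 4, at 33.6 CPM, with the others at 27.2 to 27.9 CPM. Bysl at E10.5 was lowest in replicate 4, at 65.8 CPM, with the others at 73.8 to 75.5 CPM. Bysl at E12.5 was highest in replicate 4, at 64.1 CPM, with the others at 49.6 to 50.4 CPM; this is the E12.5 library low in the Chil3 set, and Bysl was lower in libraries high in that set by 0.24 on the log2 scale (edgeR adjusted p = 0.0173). Ddx18 at E10.5 was lowest in replicate 1, at 68.1 CPM, with the others at 71.4 to 71.9 CPM. The 6 fell on 6 different libraries.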

How the results depend on the processing

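No factor changed direction with a call in any alternative. Of 3475 alternative values of single factors, 33 changed sign, over 17 pairs of factor and comparison, and 0 of these were called with or without the change of setting (edgeR or DESeq2). Without 1 library, 3 called values moved by over 1.5 times, each losing its call: Nop16 at E10.5 against E9.5 (-0.15 without E9.5 replicate 1), Gnl3 at E14.5 against E12.5 (-0.19 without E14.5 replicate 3) and Wdr74, given above. For E16.5 against E9.5, factors lower were 38 to 39 in the runs that left out a library, and the median ranged from -1.16 to -1.09. With other settings it was -1.16 with library totals only, -1.07 without the filter, -1.07 with at least 10 CPM in 3 libraries, which dropped Wdr74, and -1.15 with the library split as a term.

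For E10.5 against E9.5, leaving out a library gave 24 to 27 factors lower and 2260 (without E9.5 replicate 3) to 3839 genes called in all, against 3446. Within the 13 libraries high in the Chil3 set 6 factors and 1215 genes passed, and within the 5 others, chosen after seeing the data, 6460 genes. For E12.5 against E10.5 the median was -0.58 within the 13. For E14.5 against E12.5, leaving out a library gave 16 to 20 factors lower, and 1771 to 2585 genes in all, against 2803; library totals gave 12 and a median of -0.18. For E16.5 against E14.5, leaving out a library gave 2 to 7 factors lower, 0 to 2 higher and 2058 to 3849 genes in all, against 3562; library totals gave 19 and a median of -0.23, no filter 3, and DESeq2 called 1 factor, Rrs1, higher. With the replicate number as a block, factors lower numbered 31, 37, 20 and 4 in the 4 intervals and 39 over the whole range, which moved no count by over 1.5 times. Over 33 pairs of libraries with the same number at different stages, the correlation of deviations ran from -0.64 to 0.50, and 8 were over 0.1.

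Within the 13 libraries Nop16 at E12.5 against E10.5 was -0.39, against -0.26 over all libraries. Among subunit ratios, within the 13 libraries Fbl over Nop58 (0.33), Dkc1 over Gar1 (-0.28), Pes1 over Bop1 (0.18) and Pes1 over Wdr12 (0.24) missed the threshold, with fewer early libraries. Dkc1 over Nhp2 passed in some runs that left out a library, which ranged from -0.25 to -0.14. The cause of the other moves was not tested. Depth limits Wdr74 most, at 70 counts in its lowest library.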
